A study of Mus musculus with 7 samples.

Results

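The uroplakins Upk1a, Upk1b, Upk2, Upk3a and Upk3b were followed through RNA from 7 whole colon tumors of mice. They are 5 of the 43346 genes in the count table, found by their symbols, and they had been chosen by inspection of the difference between the bone marrow (BM) grafts. That difference is therefore given for them as a description, with no p-value of their own. A sixth gene with a uroplakin symbol, Upk3bl, is given beside them.

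Recipients were wild-type mice, C57BL6/J by the labels and congenic CD45.1 mice by the methods, that received Dnmt3a+/+ BM (3 tumors) or Dnmt3a+/Δ BM (4 tumors). Donors of both kinds carried Mx1-Cre, an interferon-inducible recombinase, and had been given poly(I:C) to induce it, so that the Dnmt3a+/Δ graft had lost 1 allele of the DNA methyltransferase gene while the recipients' epithelium and stroma had not. All recipients, 8 wk old by the labels and younger by the methods, developed tumors after the carcinogen azoxymethane (10 mg/kg) and dextran sulfate sodium, an agent that inflames the colon, given at 3% for 1 wk in each of 3 cycles with 2 wk off between. The column names of the tumors begin with BMT18 (Dnmt3a+/+ tumors 1 and 2, Dnmt3a+/Δ tumors 1 and 2) or BMT8 (Dnmt3a+/+ tumor 3, Dnmt3a+/Δ tumors 3 and 4). These prefixes are read here as transplantation experiments, a reading taken from the names alone.

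Uroplakins are the membrane proteins of the plaques that cover the luminal face of the bladder lining and help to make it impermeable and extensible. Upk1a and Upk1b are tetraspanins, proteins with several membrane-spanning segments, whereas Upk2, Upk3a and Upk3b cross the membrane once. Upk1a pairs with Upk2, and Upk1b with Upk3a or Upk3b, before the pairs leave the endoplasmic reticulum. Upk1a also serves as the receptor of type 1 fimbriae of uropathogenic Escherichia coli, and Upk3b is a marker of mesothelium. None of the 5 is a usual marker of the colon epithelium.

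Sequencing depth was 38472738 to 64314999 counts per tumor. All 21 pairs of tumors differed beyond sampling noise. Dnmt3a itself measured 20.2 to 24.3 CPM (counts scaled to library size) with Dnmt3a+/+ BM and 22.0 to 43.0 CPM with Dnmt3a+/Δ BM, in RNA that mixes graft and recipient cells and with reads of all exons counted, so it does not check the labels. Several keratins of stratified squamous epithelium were abundant in 6 of the 7 tumors. Some other squamous genes were not. Ivl, named after its values were seen, had 1.62 CPM in Dnmt3a+/+ tumor 3 and 0.811 CPM in Dnmt3a+/Δ tumor 4. Keratins Krt13 and Krt5 (genes named here after their values were seen) ranked 19th and 36th by mean CPM among 15810 genes tested. Krt5 measured 5160, 927 and 1370 CPM in the Dnmt3a+/+ tumors and 5960, 0.0815, 1220 and 1490 CPM in the Dnmt3a+/Δ tumors, in the order of their numbers. Dnmt3a+/Δ tumor 2 thus stood apart. Krt5 fell further there than some other squamous genes. Krt14, named after the fact as well, measured 149 CPM there, against 1250 to 7170 CPM in the other 6. The hindgut factor Hoxd13, also named after the fact, was nearly absent from the same tumor, at 0.0815 CPM against 91.2 to 169 CPM in the other 6.

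The uroplakin RNA was mainly that of Upk1a in the Dnmt3a+/+ tumors, and mainly that of Upk1a and Upk3a in the Dnmt3a+/Δ tumors. The means of Upk1a and Upk3a differed between grafts in opposite directions. With Dnmt3a+/+ BM, Upk1a averaged 8.41 ± 0.886 CPM (SD, n = 3), and with Dnmt3a+/Δ BM the mean was 2.48 ± 0.803 CPM (SD, n = 4). Upk3a averaged 0.553 ± 0.449 CPM (n = 3) and 2.26 ± 1.36 CPM (n = 4). Upk1b and Upk2 stayed below 1 CPM in every tumor, and Upk3b had at most 6 counts in any. Upk3a was also below 1 CPM in Dnmt3a+/+ tumors 1 (0.322) and 2 (0.265) and in Dnmt3a+/Δ tumor 1 (0.848). In Dnmt3a+/+ tumor 1 it had 12 counts, fewer than Upk1b (13) and Upk2 (18).

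The tetraspanin Upk1a lies on chromosome 7 from 30603092 to 30612847 (minus strand, GRCm38). It had 298, 499 and 308 counts in the Dnmt3a+/+ tumors and 131, 69, 141 and 88 counts in the Dnmt3a+/Δ tumors. These are 8.01, 7.79 and 9.42 CPM against 3.27, 1.41, 2.86 and 2.38 CPM. Every Dnmt3a+/+ tumor lay above every Dnmt3a+/Δ tumor, and Dnmt3a+/Δ tumor 2 was the lowest. The log2 fold change was -1.76 (SE 0.34), and -1.57 as the ratio of mean CPM without that tumor. Within BMT18 the mean with Dnmt3a+/Δ BM was 0.296 times that with Dnmt3a+/+ BM, and within BMT8, with 1 Dnmt3a+/+ tumor, 0.278 times. In whole tumors, fewer cells of a type and less RNA per cell cannot be told apart.

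Upk3a, the single-pass partner of Upk1b, lies on chromosome 15 from 85017141 to 85022547 (plus strand). It had 12, 17 and 35 counts in the Dnmt3a+/+ tumors and 34, 201, 91 and 83 counts in the Dnmt3a+/Δ tumors. These are 0.322, 0.265 and 1.07 CPM against 0.848, 4.095, 1.85 and 2.24 CPM. The groups overlapped, since Dnmt3a+/Δ tumor 1 was below Dnmt3a+/+ tumor 3, and Dnmt3a+/Δ tumor 2 was the highest. The log2 fold change was 2.04 (SE 0.73). It was 1.62 without Dnmt3a+/Δ tumor 2 and 2.94 without Dnmt3a+/+ tumor 3. The ratio of means was 8.41 in BMT18 and 1.91 in BMT8.

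Upk1b, the tetraspanin that pairs with Upk3a, lies on chromosome 16 from 38773184 to 38800328 (minus strand). It had 13, 18 and 3 counts in the Dnmt3a+/+ tumors and 26, 29, 11 and 7 counts in the Dnmt3a+/Δ tumors. These are 0.241 ± 0.133 CPM (SD, n = 3) and 0.413 ± 0.240 CPM (n = 4), which overlapped, with a log2 fold change of 0.76 (SE 0.67). Within the graft groups the tumors of BMT18 were the higher ones for this gene.

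Upk2, the partner of Upk1a, lies on chromosome 9 from 44452715 to 44454976 (minus strand). It had 18, 13 and 11 counts in the Dnmt3a+/+ tumors and 29, 3, 9 and 15 counts in the Dnmt3a+/Δ tumors. Means were 0.341 ± 0.14 CPM (SD, n = 3) and 0.343 ± 0.291 CPM (n = 4), with a log2 fold change of 0.01 (SE 0.79). Its sign turned with the tumor left out, from -0.66 without Dnmt3a+/Δ tumor 1 to 0.38 without Dnmt3a+/Δ tumor 2. Its means in the grafts differed by less than the spread between tumors, with 3 to 29 counts in each.

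Upk3b lies on chromosome 5 from 136038496 to 136046487 (plus strand). It had 0, 2 and 1 counts in the Dnmt3a+/+ tumors and 0, 6, 0 and 2 counts in the Dnmt3a+/Δ tumors, too few for a fold change or a test. The 3 tumors at 0 allow up to 0.0806, 0.0749 and 0.0609 CPM, taking 3 counts as the limit, which covers counting error alone.

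**Figure D1:**
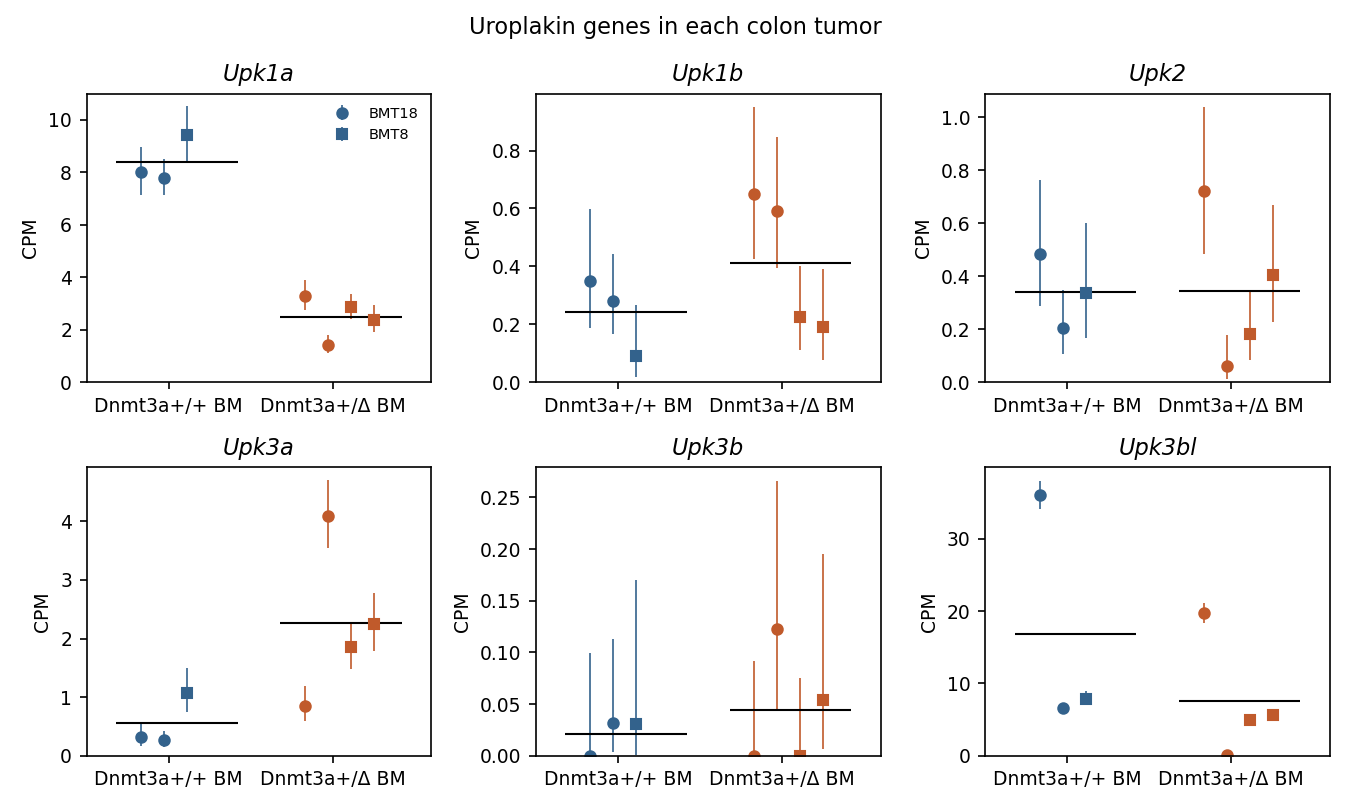
Level of each uroplakin gene (CPM, linear axes that start at 0 and differ between panels) in the 7 tumors, with circles for BMT18, squares for BMT8, vertical lines for exact 95% Poisson intervals of the counts and horizontal lines for graft means. Upk1a separates the grafts, at 7.79 to 9.42 CPM against 1.41 to 3.27 CPM, while each of the other panels overlaps.

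Set per kilobase of merged exons, so that genes can be compared, the mean over 7 tumors was 3.53 CPM per kb for Upk1a, 1.40 for Upk3a, 0.316 for Upk2, 0.162 for Upk1b and 0.00964 for Upk3b. The sum of the 5 was 6.86 ± 0.996 CPM per kb (SD, n = 3) with Dnmt3a+/+ BM and 4.34 ± 0.523 (n = 4) with Dnmt3a+/Δ BM. Upk1a made up 86.1, 90.5 and 83.2% of that sum in the Dnmt3a+/+ tumors, against 56.7, 19.4, 50.6 and 39.8% in the Dnmt3a+/Δ tumors. The share of Upk3a was 4.51, 4.01 and 12.3% against 19.1, 73.3, 42.5 and 48.8%. Neither share overlapped between grafts, but the shares add up to 100% and follow the level of Upk1a, on which the genes were selected. Upk3a itself, per kb, was lower in Dnmt3a+/Δ tumor 1 (0.776) than in Dnmt3a+/+ tumor 3 (0.980). Upk3a exceeded Upk1a per kb in Dnmt3a+/Δ tumors 2 and 4, with Upk1a at 0.264 and 0.816 times Upk3a. In the Dnmt3a+/+ tumors Upk1a was 6.77 to 22.6 times Upk3a.

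**Figure D2:**
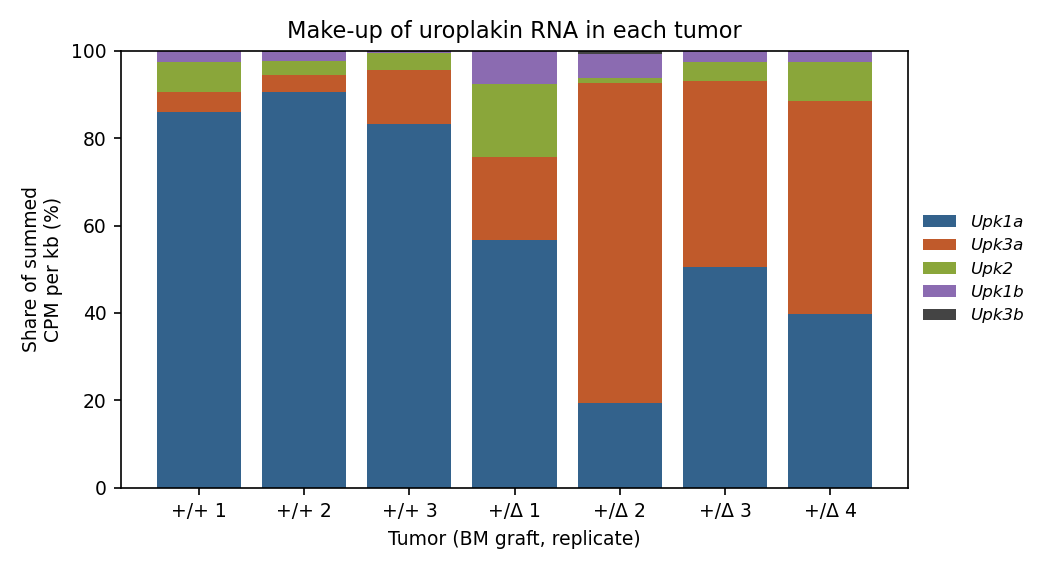
Share of each of the 5 uroplakins in their summed CPM per kb (%) in each tumor, by BM graft and replicate. Upk1a holds 83.2 to 90.5% in the Dnmt3a+/+ tumors and 19.4 to 56.7% in the Dnmt3a+/Δ tumors, where Upk3a holds 19.1 to 73.3%.

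Across all genes, no gene was called between grafts by edgeR (quasi-likelihood test, p adjusted after Benjamini and Hochberg) at an adjusted p under 0.05 and a log2 fold change beyond 1 in size, which is 0% of 15810 genes and 0 of the 4 uroplakins tested. At an unadjusted p under 0.05 there were 1744 genes. DESeq2 called 300 of 16056 genes, or 1.87%, among them 1 uroplakin, Upk1a. Tumors of the grafts did not overlap for 12.4% of the genes tested and for 1 of the 4 uroplakins, again Upk1a. Because the uroplakins were selected on this contrast, nothing is read from these counts.

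The experiments BMT18 and BMT8 offer a comparison that the selection did not use. With the graft as a covariate, edgeR called 1 gene, or 0.00633% of those tested, and none of the uroplakins (DESeq2 called 509 genes, none of them a uroplakin). Upk1b differed the most of the 4, at 0.467 ± 0.18 CPM (SD, n = 4) in BMT18 and 0.168 ± 0.0683 CPM (n = 3) in BMT8. Its tumors did not overlap between experiments, as for 14.5% of all genes tested. The log2 difference was 1.63 (SE 0.41), which missed the threshold with an edgeR adjusted p of 0.191 and a DESeq2 adjusted p of 0.126. The log2 differences of Upk1a, Upk2 and Upk3a between experiments were -0.20 (SE 0.34), 0.25 (SE 0.84) and -0.59 (SE 0.69). The test of whether the graft difference itself differed between experiments called 0% of the genes by edgeR, with 730 at an unadjusted p under 0.05, and 105 genes by DESeq2, none a uroplakin. In that design 1 of the 4 cells holds a single tumor.

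**Figure D3:**
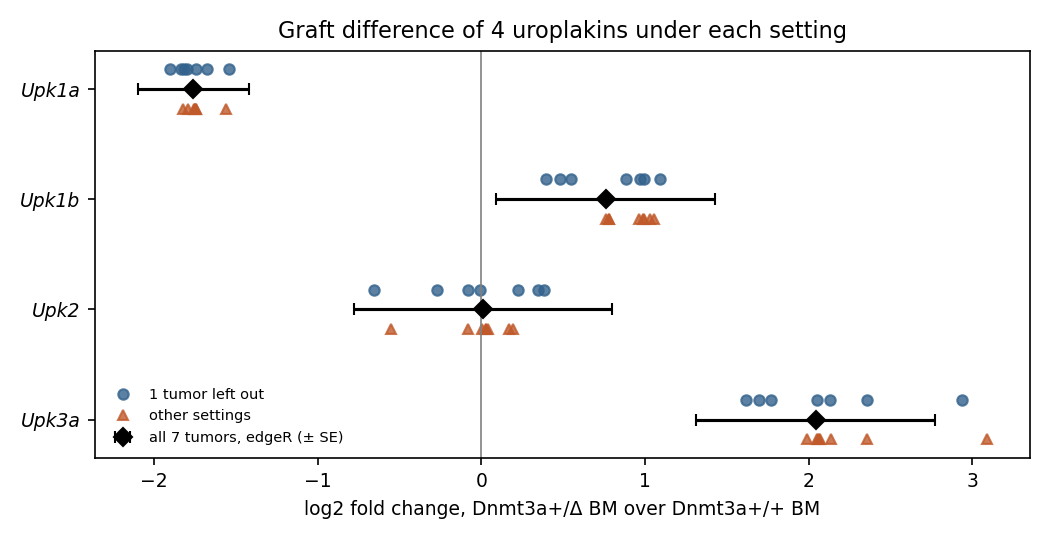
Log2 fold change of the 4 uroplakins tested, Dnmt3a+/Δ BM over Dnmt3a+/+ BM, with all 7 tumors (diamonds, ± SE), with 1 tumor left out (circles) and under other settings (triangles). Upk1a stays between -1.90 and -1.54 and Upk3a between 1.62 and 3.09, while Upk2 falls on both sides of 0.

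Upk3bl lies 8005 bp downstream of Upk3b on the same strand of chromosome 5, from 136054492 to 136064326, and had a mean of 8.86 CPM per kb. That mean was carried by Dnmt3a+/+ tumor 1 (27.7) and Dnmt3a+/Δ tumor 1 (15.1). Per kb of merged exons, Upk1a was the higher in Dnmt3a+/+ tumors 2 and 3 and in Dnmt3a+/Δ tumor 2. Per kb of the longest transcript, Upk3bl was the higher in Dnmt3a+/+ tumors 2 (5.916 against 5.482) and 3 (7.052 against 6.63). It had 1343, 424 and 258 counts in the Dnmt3a+/+ tumors and 789, 2, 244 and 206 counts in the Dnmt3a+/Δ tumors. These are 36.1, 6.62 and 7.89 CPM against 19.7, 0.0408, 4.96 and 5.57 CPM. Dnmt3a+/+ tumor 1 and Dnmt3a+/Δ tumor 1 were the highest and Dnmt3a+/Δ tumor 2 the lowest. The log2 fold change was -1.16 (SE 1.29), and its direction was lost with 1 tumor left out, at 0.057 without Dnmt3a+/+ tumor 1, -0.728 without Dnmt3a+/Δ tumor 2 and -2.266 without Dnmt3a+/Δ tumor 1. Its biological coefficient of variation in edgeR, 1.12, was at the 97.9th percentile of genes tested, against 0.391 and the 59th percentile for Upk1a.

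The order of tumors for Upk3bl resembled that of the squamous genes. The summed CPM of 17 squamous genes was 30200, 5920 and 6500 in the Dnmt3a+/+ tumors and 34200, 419, 6340 and 6060 in the Dnmt3a+/Δ tumors. Per 10000 squamous CPM, Upk3bl was 12, 11.2 and 12.1 in the Dnmt3a+/+ tumors. In the Dnmt3a+/Δ tumors it was 5.75, 0.974 (tumor 2, with its 2 counts), 7.81 and 9.19, without overlap. The root mean square distance of its mean-centred log2 CPM profile from the mean squamous profile was 0.85 over 7 tumors, against its own spread of 2.59. From the urothelial marker list, which shares 3 genes with the squamous list, its distance was nearly as small, at 0.91. For Upk1a, Upk1b, Upk2 and Upk3a the distance from the squamous profile was 2.02, 2.50, 1.69 and 3.44, each larger than the gene's own spread of 0.96, 0.76, 0.87 and 1.27. Among all 12 lists the nearest to Upk1a was apical membrane trafficking (0.74), with the epithelial list almost as near (0.76). Tetraspanins were nearest to Upk1b (0.72), with fibroblasts almost as near (0.75) and its own spread hardly larger (0.76). For Upk2 the nearest was the list of urothelial factors (0.46) and for Upk3a that of fibroblasts (0.92). These distances from list profiles were added after the values had been seen.

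**Figure D4:**
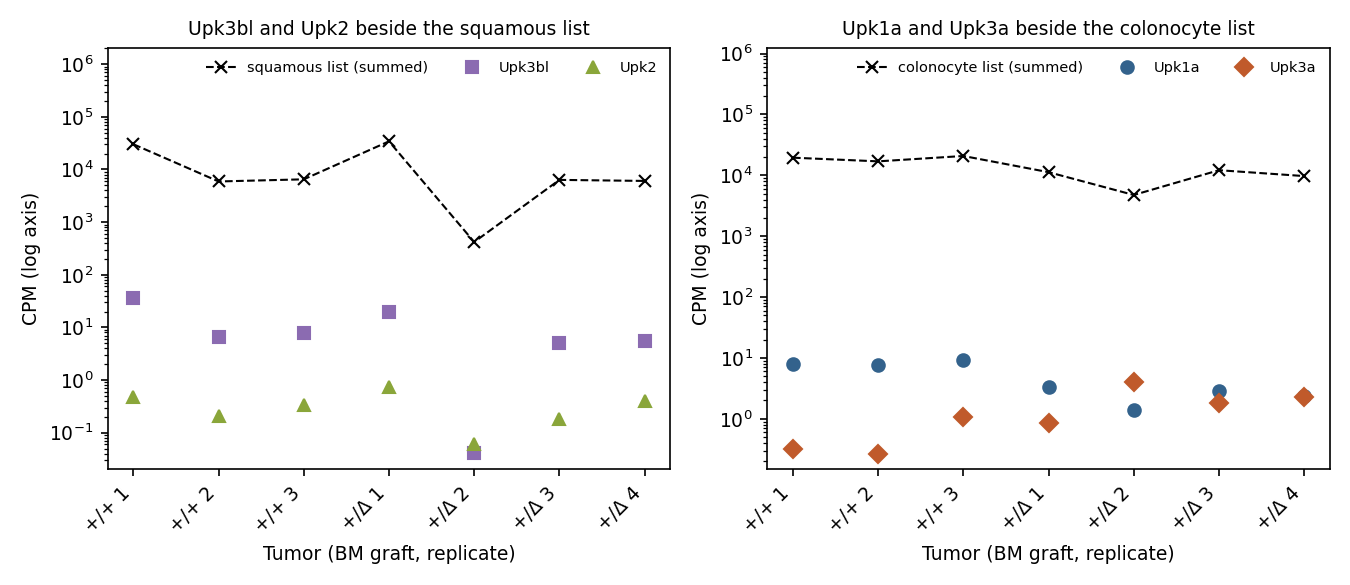
CPM on log axes in each tumor, by BM graft and replicate. Left, Upk3bl and Upk2 with the summed squamous genes (crosses), all lowest in Dnmt3a+/Δ tumor 2; right, Upk1a and Upk3a with the summed colonocyte genes, of which Lypd8 makes up 60.1 to 76.1%. That sum is lower in every Dnmt3a+/Δ tumor than in any Dnmt3a+/+ tumor.

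Summed colonocyte and epithelial genes were set beside Upk1a. The summed CPM of 15 colonocyte genes was 17000 to 20800 in the Dnmt3a+/+ tumors and 4760 to 12100 in the Dnmt3a+/Δ tumors, without overlap. Lypd8, a secreted barrier protein named here after its values were seen, made up 60.1 to 76.1% of that sum, and the other 14 genes summed to 4850 to 6310 and 1900 to 4490 CPM. Of these 14, Emp1, also named after the fact, had 2500 CPM in Dnmt3a+/+ tumor 1 and 2150 CPM in Dnmt3a+/Δ tumor 1. It had 117 CPM in Dnmt3a+/Δ tumor 2 and 441 to 1020 CPM in the rest. The squamous sum was highest and lowest in the same tumors. The mean log2 CPM of the 15 genes, which weights them equally, overlapped and was lowest of all in Dnmt3a+/+ tumor 3, at 6.43. The sums of 8 general epithelial genes overlapped, at 15600 to 32400 and 9580 to 21000 CPM. Per 1000 colonocyte CPM, Upk1a was 0.441 ± 0.0263 (SD, n = 3) with the Dnmt3a+/+ graft and 0.267 ± 0.0306 (n = 4) with the Dnmt3a+/Δ graft. The log2 ratio of Upk1a was -1.76 in plain CPM, -0.73 against the colonocyte sum, -1.08 against that sum without Lypd8 and -1.17 against the epithelial sum. The part of epithelial content in the level of Upk1a was not tested further.

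Genes that mark the urothelium were followed beside the uroplakins. Of 9 urothelial marker genes tested, 1 had a positive and 8 a negative log2 fold change, with a median of -0.33 against 0.003 over all genes tested (7936 positive, 7874 negative). None was called by edgeR or DESeq2. The direction of that median turned with 1 tumor left out, at 0.345 without Dnmt3a+/+ tumor 1, 0.011 without Dnmt3a+/Δ tumor 2 and -1.287 without Dnmt3a+/Δ tumor 1. The ends of the list were Shh, a secreted signal of basal urothelium, at 0.81 (SE 1.47) and the surface antigen Psca at -0.74 (SE 1.6). This list shares 3 genes with the squamous list, and the sorting nexin Snx31, which binds uroplakins in the bladder, had at most 12 counts. Among 10 transcription factors of the urothelium, 5 were positive and 5 negative, with a median of -0.03, and from -0.337 to 0.094 with 1 tumor left out. DESeq2 called Tbx3, a T-box factor, at a log2 fold change of 2.26 (SE 0.44), from 16.0 ± 3.17 CPM (SD, n = 3) to 76.8 ± 41.2 CPM (n = 4), and edgeR did not, with an adjusted p of 0.361 against 0.000252 in DESeq2. Pparg, a receptor that drives urothelial differentiation, had the most negative value of that list, -0.66 (SE 0.31).

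The other tetraspanins, relatives of Upk1a and Upk1b, had 12 positive and 15 negative values of 27 tested. Their median was -0.13, against 0.003 over all genes tested. Scaled by library size alone it was 0.09, against 0.213 over all genes tested. At an unadjusted edgeR p under 0.05, 6 were lower and 1 higher, against 822 and 922 of all genes tested. Their summed CPM, which weights abundant members most, was 5050 to 5510 with Dnmt3a+/+ BM and 2890 to 4130 with Dnmt3a+/Δ BM, without overlap. Tspan1, the only member DESeq2 called, measured 1270 ± 165 CPM (SD, n = 3) in the Dnmt3a+/+ tumors and 574 ± 126 CPM (n = 4) in the others, a log2 fold change of -1.14 (SE 0.23, adjusted p 0.361 in edgeR and 0.00315 in DESeq2). Tspan32 was at the other end, at 2.28 (SE 1.04). All 9 tested genes of apical membrane trafficking were negative, with a median of -0.36, none was called, and Mal, a raft protein of apical transport, was the lowest at -0.61 (SE 0.83).

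Mesothelium is a known source of Upk3b. Its markers Wt1 and Lrrn4 had 0 counts and at most 1 count in any tumor, whereas Msln, named after its values were seen, ranged from 3.6 to 112 CPM. Of 10 mesothelial genes 4 were tested, with a median of 0.75, from Bnc1 at -0.13 (SE 1.36) to Aldh1a2 at 2.47 (SE 1.44), and none was called. The squamous list had 10 positive and 7 negative of 17, with a median of 0.10, from Krt13 at -0.53 (SE 1.27) to Krt1 at 1.6 (SE 2.24), and no call. That median was 1.118 without Dnmt3a+/+ tumor 1 and -1.686 without Dnmt3a+/Δ tumor 1.

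Of 15 colonocyte genes 2 were positive and 13 negative, with a median of -0.76. The ends of the list were the sodium-proton exchanger Slc9a3 at 3.02 (SE 1.27) and the carbonic anhydrase Car4 at -1.70 (SE 1.11). DESeq2 called Ceacam20, an adhesion molecule of the brush border, at -1.13 (SE 0.20, adjusted p 0.00361), and edgeR did not (adjusted p 0.361). All 8 epithelial genes were negative, with a median of -0.52 and Krt8 the lowest at -0.78 (SE 0.41). In the posterior gut list 2 were positive and 7 negative, with a median of -0.45, which was -0.007 without Dnmt3a+/Δ tumor 2. Hoxd12 had the highest value, 0.82 (SE 1.47). There DESeq2 called the intestinal factor Cdx1 at -1.15 (SE 0.28, adjusted p 0.0324), and edgeR did not (adjusted p 0.361).

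Stromal and blood lists were followed as markers of other cells in the tumors. Fibroblast genes had 9 positive and 1 negative of 10, with a median of 0.73 that was 0.175 without Dnmt3a+/Δ tumor 2, from Dpt at -0.53 (SE 0.46) to Pdgfra, a receptor of platelet-derived growth factor, at 2.10 (SE 0.82). Their summed CPM was 189 to 354 with Dnmt3a+/+ BM and 267 to 1100 with Dnmt3a+/Δ BM, the highest being Dnmt3a+/Δ tumor 2, where Upk3a was also highest. The part of fibroblast content in the level of Upk3a was not tested. Smooth muscle and leukocyte genes had medians of 0.06 and 0.05, both of which changed sign with 1 tumor left out (-0.577 to 0.531 and -0.308 to 0.281), from Myocd at -0.33 (SE 1.10) to Actg2 at 0.39 (SE 1.08) and from Cd74 at -1.67 (SE 0.80) to Cd79a at 2.03 (SE 1.40). No gene of these lists was called by either tool.

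The profile of each uroplakin over the 7 tumors was set against every gene tested, by the root mean square distance of mean-centred log2 CPM. The uroplakins were chosen on the graft difference in these same tumors, so genes with a like difference come near by that choice. The 5 genes nearest Upk1a had log2 fold changes of -1.35 to -1.20, and the 5 nearest Upk3a of 1.76 to 2.35. The nearest genes are therefore given as a description only. For Upk1a the nearest was Tnfsf13, a cytokine that sustains plasma cells, at a distance of 0.252, where the median over genes was 1.04. It measured 32.6, 32.0 and 43.3 CPM in the Dnmt3a+/+ tumors and 16.7, 9.29, 17.4 and 14.2 CPM in the Dnmt3a+/Δ tumors. Its antisense gene Tnfsf13os, which cannot be separated from it if strand was ignored in counting, the sulfotransferase Sult1b1, the RNA-editing deaminase Apobec1 and the membrane protein Pmp22 followed, at 0.299 to 0.321.

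For Upk3a the nearest were the synaptic adhesion gene Clstn2 (0.224), the endothelial factor Sox18, the cytokine subunit Il23a, Map7d2 and Shroom1 (0.303), against a median of 1.33. For Upk1b they were Kank1, a regulator of the cytoskeleton (0.168), Mroh2a, Zfp809, the fatty acid desaturase Scd1 and Soga1 (0.264). For Upk2 they included the p53 inhibitor Ppp1r13l (0.204), Mlf1, 9230114K14Rik and the glycine-cleaving enzyme Gldc (0.262). For Upk3bl they included Lypd3, Tmprss11d, Skint3 and Adgrf4, at 0.352 to 0.368. Among the uroplakins themselves the closest pair was Upk1a and Upk2, at 0.98. That is near the median over genes, 1.04 for Upk1a and 0.95 for Upk2, so the pair was no more alike than genes in general. Upk1a and Upk3a were 2.14 apart, and their opposite graft differences, known when the genes were chosen, enter that distance. No uroplakin was thus among the nearest genes of another.

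No annotated gene overlaps a uroplakin gene. The neighbours of Upk1a on chromosome 7, Zbtb32 and Cox6b1, lie within 4183 bp and had log2 fold changes of -0.05 (SE 0.42) and -0.37 (SE 0.22). Beside Upk3a, 5031439G07Rik had 0.49 (SE 0.23) and Fam118a 1.10 (SE 0.42). Beside Upk1b, B4galt4 had -0.84 (SE 0.37) and 4930435E12Rik no count. Beside Upk2, Foxr1 had no count and Bcl9l 0.41 (SE 0.31), and upstream of Upk3b, Dtx2 had -0.21 (SE 0.23). Rasa4, a Ras GTPase activator 19590 bp beyond Upk3bl, averaged 35.2 ± 5.85 CPM (SD, n = 3) and 14.4 ± 6.88 CPM (n = 4), without overlap, at -1.29 (SE 0.37). Neither tool called a neighbour, and Rasa4 had an adjusted p of 0.373 in edgeR and 0.0782 in DESeq2.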

How the data were processed

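Polyadenylated RNA of 7 whole colon tumors was sequenced from a directional library. The authors trimmed reads with Trimmomatic, aligned them to mm10 with STAR and deposited the estimated counts per gene from RSEM, unnormalized. The annotation release and the strand setting of counting are not given in the sources used here. Values were whole numbers. Genes without a symbol held 0.104% of counts. Positions, neighbours and exon lengths came from GENCODE M21 (GRCm38), which named 42462 of 43346 identifiers.

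Counts were tested with edgeR 4.0.16 in R 4.3.3 (TMM, filterByExpr, quasi-likelihood test, Benjamini-Hochberg adjustment over all genes tested). DESeq2 1.42.0 was an alternative. Calls needed an adjusted p under 0.05 and a log2 fold change over 1 in size. CPM used TMM library sizes, and log2 CPM a prior count of 2. Scripts were tested on simulated data. Replicates are tumors of separate animals per the series description.

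The uroplakins and the 12 gene lists were chosen with earlier results of these data known. Named genes were the uroplakins and Upk3bl, list members called by a tool or at either end of a list, undetected markers, the 5 genes nearest in profile to each uroplakin tested, and neighbours. Alternatives were other scalings and filters, the experiment as covariate, a replicate block, BMT18 alone and each tumor left out. Vamp7, Muc16 and Prac1 were not analysed here. Some of the genes nearest in profile are not reported here.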

Additional observations from a re-analysis of the deposited data

Results flagged for a closer look

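Of 18 values checked among the 4 Dnmt3a+/Δ tumors, 1 had a tumor far from the others, where chance would give about 0.9. The summed CPM of the fibroblast genes was 1100 in Dnmt3a+/Δ tumor 2 and 266 to 399 in the other 3, a gap of 0.84 of the range, just past Dixon’s critical value for 4 samples. Upk3a was highest in the same tumor, at 4.095 CPM, and Upk1a lowest, at 1.41 CPM. Neither uroplakin met that limit.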

How the results depend on the processing

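With each tumor left out in turn, the graft log2 fold change ranged from -1.902 to -1.54 for Upk1a, from 0.396 (without Dnmt3a+/+ tumor 3) to 1.091 (without Dnmt3a+/+ tumor 1) for Upk1b, from -0.656 to 0.381 for Upk2, from 1.618 to 2.939 for Upk3a, and from -2.266 (without Dnmt3a+/Δ tumor 1) to 0.057 (without Dnmt3a+/+ tumor 1) for Upk3bl. edgeR called 0 genes in each of these fits. DESeq2 called 300 genes between grafts, 1 of them a uroplakin and 4 of them list genes, 509 between experiments and 105 for graft by experiment, where edgeR called 0, 0, 0, 1 and 0. The cause was not tested. In BMT18 alone Upk3a had 3.092. Scaling by library size alone moved the median of all genes from 0.003 to 0.213 and Upk1a to -1.563. Division by the epithelial or colonocyte list, added after the data had been seen, moved Upk1a to -1.172 or -0.727 and Upk3a to 3.02 or 3.564, and by the colonocyte list without Lypd8 to -1.083 and 3.055. The mean sums of these lists are themselves lower with the Dnmt3a+/Δ graft. The larger values of Upk3a and the smaller size of those of Upk1a therefore both follow from the divisor. Upk3a overlapped between grafts in plain CPM, but not after division by the epithelial or the colonocyte list. With a prior count of 0.5, of the 5 nearest genes 4 remained for Upk1a, 3 for Upk1b, 2 for Upk2, 5 for Upk3a and 2 for Upk3bl.

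Tumors with the same replicate number did not deviate together throughout, with correlations of 0.568, 0.071 and -0.038, so the numbers were not taken to pair them. With the replicate block on replicates 1 to 3, log2 fold changes were -1.821 for Upk1a, 1.053 for Upk1b, -0.554 for Upk2 and 1.992 for Upk3a, and 0 genes were called. Counts of Upk1b, Upk2 and Upk3b limit what these tumors can show.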
